A study of Mus musculus with 32 samples.

Results

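Toll-like receptor (TLR) signalling in macrophages was followed through the mRNA of 36 of its adaptors, kinases and negative regulators, out of 25067 genes in the series. They were taken by name, as a list of pathway members, and all 36 were found. The list holds 23 positive-acting members, 10 negative regulators and 3 members with both actions (Traf1, Traf3 and Peli1). The cells were bone marrow-derived macrophages (BMDMs), grown for 7 days from the marrow of male C57Bl6/J mice of 6 to 12 weeks. BMDM-WT came from wild-type littermates. BMDM-Nur77-KO came from mice whose loxP-flanked Nr4a1 gene, which encodes the nuclear receptor Nur77, had been deleted in the whole body by a Cre recombinase driven by the cytomegalovirus promoter. The Cre transgene was then bred out, although the labels call this genotype cre. Both genotypes were stimulated with 100 ng/ml lipopolysaccharide (LPS), a ligand of TLR4, for 0, 1, 5 and 18 h, with 4 libraries in each of the 8 groups. No source states whether the 4 libraries came from separate mice, so p-values measure the spread between these libraries.

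When LPS binds TLR4 with its partner MD-2 (Ly96), the adaptors MyD88 and TIRAP recruit IRAK kinases, and TRAF6 then builds ubiquitin chains that activate the TAK1 and IKK kinase complexes and, through them, NF-kB and the MAP kinases. A second arm runs from endosomes through the adaptors TRAM (Ticam2) and TRIF (Ticam1) to TRAF3 and the kinases TBK1 and IKKe (Ikbke), which drive interferon genes. The cascade is restrained by an inactive IRAK (Irak3), by receptor-bound inhibitors (Tollip, Sigirr) and by proteins that cut or bind ubiquitin chains (A20, which is Tnfaip3, its partners Tnip1, Tnip2 and Tnip3, and Cyld, Otulin and Otud1). Several of these inhibitors are themselves NF-kB targets in macrophages, which makes them part of a negative feedback.

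The short stretches of promoter below are shown because Tnfaip3, Tnip1 and Tnip3, the inhibitors of the A20 group that were called higher at 18 h in the knockout, each carry a match to the NF-kB consensus just before their start. Capitals mark the match. Sequences are from RefSeq (GRCm38.p6, the same assembly as mm10) and run 5′ to 3′ on the strand of the gene.
Tnfaip3, chr10:19015501-19015560, minus strand: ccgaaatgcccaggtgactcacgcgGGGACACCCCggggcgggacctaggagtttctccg
Tnfaip3, chr10:19015411-19015447, minus strand: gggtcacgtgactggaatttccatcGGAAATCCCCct
Tnip1, chr11:54962962-54963023, minus strand: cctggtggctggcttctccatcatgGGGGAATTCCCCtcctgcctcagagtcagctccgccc
Tnip3, chr6:65590319-65590378, plus strand: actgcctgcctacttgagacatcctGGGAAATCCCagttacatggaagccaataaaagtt
The consensus was searched on both strands in the 250 bases before each start. It was held by 3.90% of 32851 promoters of the genome, and by 6 of the 38 promoters entered for 29 of the members. The other 3 members with a match were Cyld, Map3k7 and Traf3. The match lay inside the annotated span of the gene in Map3k7 and Traf3, and across the start of that span in Cyld. Of the other members called higher at 18 h in the knockout, Otud1, Traf1 and Traf5 had no match. Ripk2 had no promoter entry and was not searched. The AP-1 motif TGANTCA was held by 6.75% of all promoters and by 4 of the 38 promoters of the members, which belong to 2 members, Tnfaip3 and Ikbkg. Some of the Ikbkg matches lay inside the annotated span of the gene. In Tnfaip3 the AP-1 motif lay 136 to 130 bases before the start, beside the first NF-kB match shown. The Nur77 monomer motif AAAGGTCA was held by 1.34% of all promoters and was not found in these windows of the members. A match is a description of letters and not of binding.

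Libraries held 8742362 to 15780926 tags (median 11847140). All 8 macrophage markers were above 1 CPM in every group, CPM being the tag count scaled for library size with TMM, and markers of fibroblasts, erythroid cells, B cells and mast cells summed to at most 5.32 CPM in any library. The T cell list reached 21.6 CPM, with Cd4 its one gene above 1 CPM, and neutrophil markers 52.0 CPM. In bulk RNA, fewer cells of a type and less RNA per cell cannot be told apart. Nr4a1, the targeted gene, was lower in the knockout before LPS (log2 fold change -1.90 ± 0.19 SE, adjusted p = 1.5e-08), after 1 h (-1.20 ± 0.15, adjusted p = 1.8e-06) and after 5 h (-1.54 ± 0.55, adjusted p = 0.042), but it still measured 191 CPM at 1 h against 437 CPM in BMDM-WT, so tags remained on the transcript of the deleted gene. The value at 5 h rests on 7 to 9 tags a library in BMDM-WT and 1 to 7 in the knockout. At 18 h both groups had at most 5 tags. Nr4a1 passed the filter on low values through its 0 and 1 h groups.

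Of the BMDM-Nur77-KO libraries, replicate 1 of the 5 h group and replicate 4 of the 18 h group stood apart. Their root mean square deviation from the group mean was 0.547 and 0.388 on the log2 scale, against at most 0.337 in any other library. In both, deviations went against transcript GC content (r = -0.62 in each, across genes), as they did in replicate 3 of BMDM-WT at 18 h (-0.60). The members deviated together in the first pair. Tab2 was 0.76 and 0.57 above its group mean, Tnip3 0.69 and 0.50, and Ly96 0.72 and 0.45, while Traf2 was 0.59 and 0.48 below. Across the 35 members tested, the deviations in these libraries had r = 0.94, as a description with genes that are not independent. Over all 11279 genes tested r was 0.77, so the shared deviation was not particular to the members. Results that rest on these libraries are given with and without them, and the part of GC content in a result was measured only through a GC-corrected fit.

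**Figure D1:**
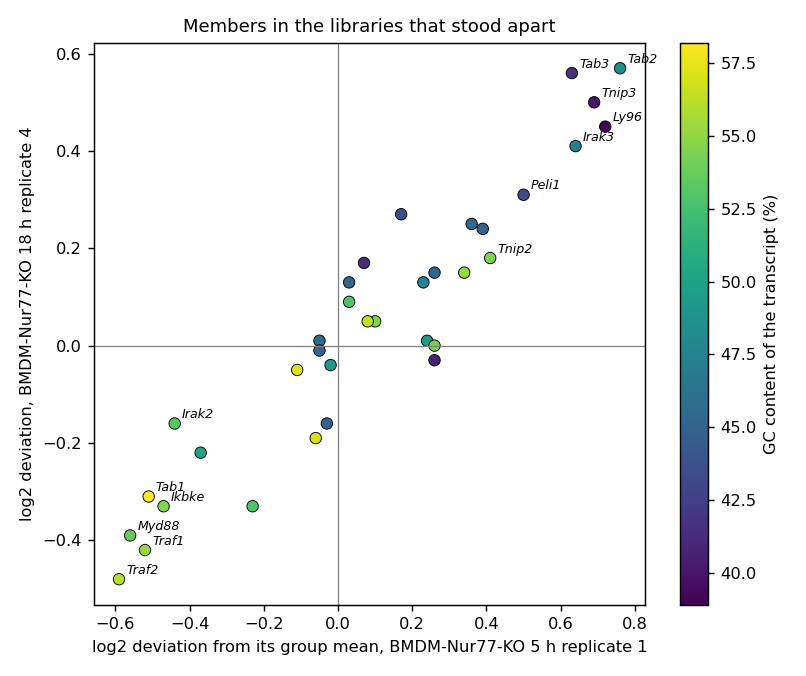
Log2 deviation of each of 35 members from its group mean in BMDM-Nur77-KO replicate 1 of the 5 h group (horizontal axis) and replicate 4 of the 18 h group (vertical axis), coloured by the GC content of the transcript in percent. Members such as Tab2, Tnip3 and Ly96 lay high in both and Traf2, Traf1 and Myd88 low in both.

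The first question was how the members respond to LPS in BMDM-WT, positive against negative. The summed level of the negative regulators was already high at 1 h, mostly through Tnfaip3, and that of the positive-acting members was highest at 5 h. Summed over its 10 genes, the negative side went from 171 ± 5.00 RPKM (CPM per kilobase of transcript; SD, n = 4) before LPS to 875 ± 19.6 after 1 h, 927 ± 20.2 after 5 h and 313 ± 9.71 after 18 h. The 23 positive-acting members summed to 361 ± 6.34 RPKM, then 409.7 ± 15.4, 1067 ± 20.3 and 667 ± 9.96 at these times. Tnfaip3 alone made up 68.5% of the negative sum at 1 h and 39.6% at 5 h. In BMDM-Nur77-KO the negative sum was 191 ± 3.83, 808 ± 18.7, 985 ± 142 and 450.4 ± 27.1 RPKM at these times. It lay above that of BMDM-WT at 0 and 18 h and below it at 1 h. These sums are levels and were not tested.

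**Figure D2:**
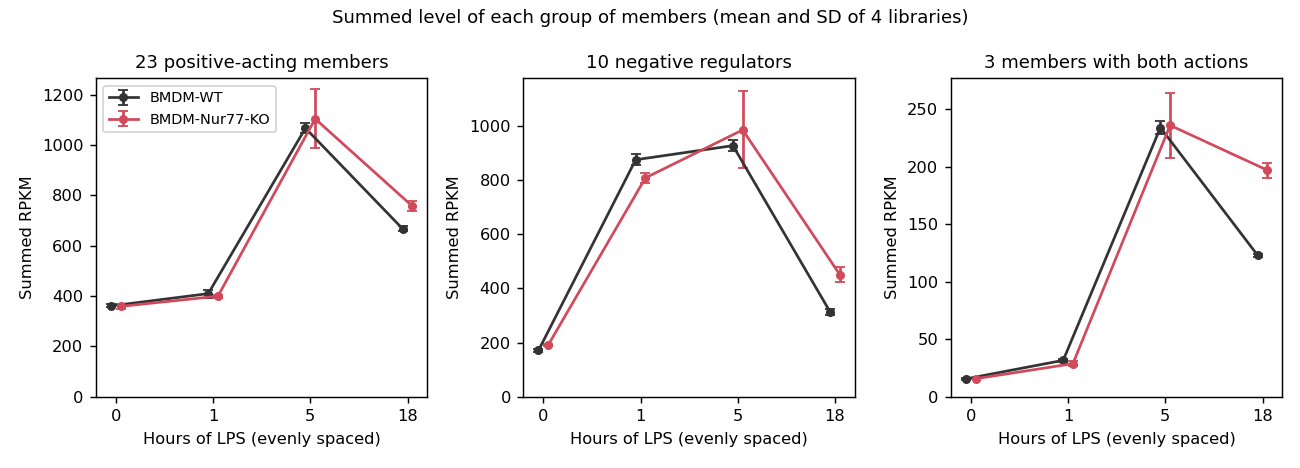
Summed level (RPKM, vertical axis) of the positive-acting members, the negative regulators and the members with both actions at each time of LPS (horizontal axis, evenly spaced), as the mean and SD of 4 libraries for each genotype. The negative sum rises to 875 RPKM within 1 h in BMDM-WT, the positive sum reaches 1067 RPKM at 5 h, and at 18 h the knockout lies above BMDM-WT in all 3 panels.

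To be called against 0 h, a member had to change by more than 1 on the log2 scale with adjusted p below 0.05 (edgeR quasi-likelihood test, Benjamini-Hochberg over 11279 genes). At 1 h in BMDM-WT, 7 of 35 members tested were called higher and 1 lower, against 3.43% and 1.76% of all genes tested. Of the 7, 4 were negative regulators (of 9 tested), 2 were positive-acting (of 23) and 1 was Traf1. At 5 h, 17 were called higher and 1 lower, against 15.7% and 18.0% of all genes. At 18 h, 13 were called higher, against 13.1% of all genes called higher and 14.3% called lower. The median log2 fold change of the 9 negative regulators was 0.37, 1.51 and 0.52 at 1, 5 and 18 h, that of the 23 positive-acting members 0.09, 0.60 and 0.54, and that of all genes tested -0.03, -0.14 and -0.01. In BMDM-Nur77-KO, 6 members were called higher at 1 h (3.23% of all genes were called higher and 1.30% lower), 19 higher and 1 lower at 5 h (16.0% and 16.6%) and 16 higher at 18 h (15.4% and 16.4%).

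**Figure D3:**
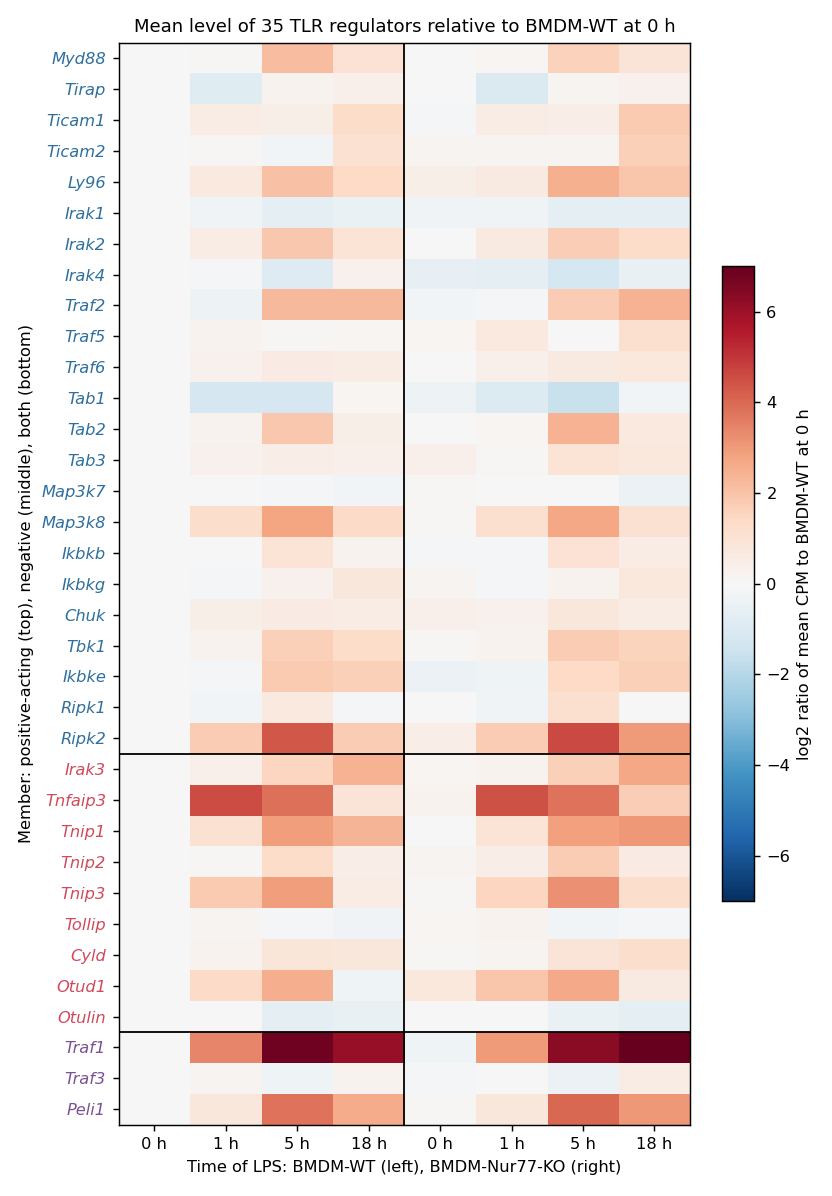
Mean level of each of 35 members (rows: positive-acting, negative, both) in the 8 groups (columns: time of LPS in BMDM-WT, left, and BMDM-Nur77-KO, right), as the log2 ratio of mean CPM to BMDM-WT at 0 h. Traf1, Ripk2, Tnfaip3 and Peli1 show the deepest red, while Tab1, Irak1 and Irak4 are blue at 5 h.

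Among the inhibitors, A20 had the largest change at 1 h. Tnfaip3, a ubiquitin-editing enzyme that ends NF-kB signalling, measured 103, 115, 114 and 112 CPM in the 4 BMDM-WT libraries at 0 h and 2772, 2709, 2588 and 2532 CPM at 1 h. It was at 1586 to 1656 CPM at 5 h and at 186 to 217 CPM at 18 h, above every library at 0 h. Its log2 fold change against 0 h was 4.58 ± 0.06 at 1 h (adjusted p = 1.3e-30), 3.87 ± 0.06 at 5 h and 0.89 ± 0.06 at 18 h. Tnip3, an A20-binding inhibitor, followed at 111 to 135 CPM at 0 h, 413 to 509 CPM at 1 h and 896 to 1016 CPM at 5 h (log2 fold change 1.82 ± 0.17 and 2.90 ± 0.18). Tnip1, its relative, rose from 44.4 to 54.3 CPM at 0 h to 98.1 to 109.7 CPM at 1 h and 356 to 395 CPM at 5 h, and it held 253 to 268 CPM at 18 h (log2 fold change 1.09 ± 0.08, 2.95 ± 0.08 and 2.40 ± 0.08). Tnip2 responded less, with 24.8 to 31.6 CPM at 0 h and 59.5 to 70.6 CPM at 5 h (1.30 ± 0.12). Groups did not overlap in any of these contrasts.

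The other inhibitors had their own timing. Otud1, a deubiquitinase that limits innate signalling, peaked at 5 h (25.4 to 34.7 CPM at 0 h, 65.5 to 82.8 at 1 h and 160 to 179 at 5 h) and was slightly lower than at 0 h by 18 h, with overlap (21.1 to 25.9 CPM, log2 fold change -0.28 ± 0.12, adjusted p = 0.038). That last difference did not pass without replicate 2 or 4 of the 0 h group or replicate 1 or 2 of the 18 h group (-0.18 and adjusted p = 0.21 without the first of these), nor with DESeq2 or GC correction. Irak3, the IRAK that blocks the complex of the active IRAKs, was highest at 18 h, going from 18.8 to 23.4 CPM at 0 h to 55.3 to 63.0 CPM at 5 h and 108 to 120.4 CPM at 18 h (log2 fold change 1.51 ± 0.15 and 2.43 ± 0.15). Its counts came from a transcript that RefSeq lists as non-coding. Cyld, which cuts ubiquitin chains, rose by less than the limit at 5 and 18 h (0.84 ± 0.10 and 0.80 ± 0.10). Otulin, which cuts linear chains, fell by 0.62 ± 0.08 and 0.54 ± 0.08 on the log2 scale. Tollip, which binds IRAK1, was at -0.23 ± 0.09 at 18 h (adjusted p = 0.029), which did not pass without replicate 3 or 4 of the 0 h group or replicate 1 or 4 of the 18 h group (highest adjusted p = 0.087). Sigirr, an inhibitory receptor of the IL-1 receptor family, had 0 to 26 tags a library and was not tested. Its highest value was 1.98 CPM, in a BMDM-WT library at 0 h.

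On the positive side and among the members with both actions, Traf1 and Ripk2 moved furthest. Traf1, an adaptor of TNF receptors that also restrains TLR signalling, was nearly silent at 0 h, with 2.14, 1.56, 2.12 and 1.6 CPM in BMDM-WT. It measured 17.7 to 23.4 CPM at 1 h, 203 to 215 CPM at 5 h and 116 to 136 CPM at 18 h, without overlap between times (log2 fold change 3.43 ± 0.21, 6.83 ± 0.21 and 6.13 ± 0.20). Ripk2, the kinase of the NOD receptors, went from 14.6 to 18.3 CPM to 52.0 to 65.0 CPM at 1 h and 308 to 359 CPM at 5 h, and was back at 51.4 to 65.8 CPM at 18 h (1.8 ± 0.10, 4.34 ± 0.11 and 1.8 ± 0.10). Peli1, a ubiquitin ligase that acts on IRAKs and TRAF3, rose from 34.2 to 39.7 CPM at 0 h to 471 to 506 CPM at 5 h and 208 to 236 CPM at 18 h (3.78 ± 0.12 and 2.61 ± 0.12). Map3k8, or TPL2, the kinase upstream of ERK, rose from 13.8 to 18.9 CPM to 33.2 to 40.8 CPM at 1 h and 97.2 to 119.6 CPM at 5 h (1.21 ± 0.09 and 2.78 ± 0.09).

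The adaptors of both arms rose at different times. Myd88 peaked at 5 h (74.4 to 86.0 CPM at 0 h, 345 to 379.9 CPM at 5 h, log2 fold change 2.17 ± 0.12) and was at 150.4 to 165 CPM at 18 h (1.01 ± 0.12). Exons of Acaa1a, on the opposite strand, overlap 11.3% of the exon bases of Myd88. Ticam1 and Ticam2, the adaptors of the endosomal arm, were highest at 18 h. Ticam1 went from 23.0 to 29.7 CPM at 0 h to 57.4 to 67.4 CPM at 18 h (1.30 ± 0.09), and Ticam2 from 44.0 to 56.1 CPM to 100 to 111 CPM (1.08 ± 0.07). At 5 h Ticam2 was at -0.20 ± 0.07 (adjusted p = 0.015), which did not pass without replicate 3 of the 0 h or of the 5 h group, with DESeq2 or with only the libraries compared (highest adjusted p = 0.19), and was -0.38 with GC correction. Tags on Ticam2 are partly uncertain, since 14.5% of its exon bases are shared with Tmed7 on the same strand. Tbk1, the interferon-arm kinase, rose from 81.8 to 91.2 CPM at 0 h to 246 to 295 CPM at 5 h and 205 to 228 CPM at 18 h (1.64 ± 0.10 and 1.29 ± 0.10), and its relative Ikbke by 1.85 ± 0.14 and 1.68 ± 0.14.

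A few positive-acting members fell. Tab1, a TAK1-binding subunit, was the member called lower, although with GC correction it changed by -0.99 and -0.97 at 1 and 5 h, just inside the limit. It had 10.7 to 14.0 CPM at 0 h, 4.80 to 5.89 CPM at 1 h and 4.65 to 5.92 CPM at 5 h (-1.18 ± 0.15 and -1.21 ± 0.16), and was back at 12.3 to 15.5 CPM at 18 h. Irak4, the first kinase of the MyD88 complex, fell by 0.89 ± 0.09 on the log2 scale at 5 h, and Irak1, the kinase it activates, by 0.69 ± 0.07. Among the members with both actions, Traf3, the ligase of the endosomal arm, was at -0.30 ± 0.10 (adjusted p = 0.011). That difference did not pass with DESeq2 or GC correction (adjusted p = 0.059 in each). Tirap, which bridges MyD88 to TLR4, fell by 0.86 ± 0.10 at 1 h alone and was slightly above 0 h afterwards (0.26 ± 0.10 and 0.36 ± 0.09, the first not past the test without replicate 3 of the 0 h group, adjusted p = 0.062). Tab2, another TAK1-binding subunit, and Ly96 went the other way at 5 h (1.86 ± 0.17 and 2.05 ± 0.20), as did Irak2 (1.88 ± 0.11) and Traf2 (2.25 ± 0.16). All 7 IKK and RIP kinases passed the test upwards at 5 h, 3 of them beyond the limit. Of all genes, 15.7% were called higher at that time, and 8117 of 11279 had an unadjusted p under 0.05 in either direction. Ripk1, the kinase of TNF receptor signalling, rose by 0.71 ± 0.10, Ikbkg, the regulatory subunit NEMO, by 0.32 ± 0.08 and Chuk, the catalytic subunit IKKa, by 0.58 ± 0.11. With GC correction Ikbkg no longer passed (0.14, adjusted p = 0.22) and Chuk was at 0.30. Traf6 rose by 0.60 ± 0.06. Map3k7, which is TAK1 itself, and Tab3, a further binding subunit, did not pass at 5 h (-0.08 ± 0.08 and 0.43 ± 0.23).

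The main question of the series was how loss of Nur77 alters these responses. Calls between genotypes needed adjusted p below 0.05 and a difference larger than 0.58 on the log2 scale. At 18 h, 7 of 35 members were higher in BMDM-Nur77-KO and 1, Irak4, was lower, against 5.70% and 4.12% of all genes tested. The 7 were Ripk2, Traf5, Traf1, Otud1, Tnfaip3, Tnip3 and Tnip1. Of 9 negative regulators tested, 4 were called higher, with a median log2 fold change of 0.44, and of 23 positive-acting members, 2 were called higher and 1 lower, with a median of 0.16, where the median of all genes was -0.01. Before LPS and at 1 h the difference was small: Otud1 alone was called higher at 0 h (2.38% of all genes were called higher and 2.44% lower) and again at 1 h (1.51% and 1.36%). At 5 h, 0 members were called (5.61% of all genes were called higher and 3.13% lower). Without the limit on the fold change, 6, 4, 10 and 21 members passed at 0, 1, 5 and 18 h. The share of all genes passing without that limit is not given here. At an unadjusted p under 0.05 the numbers were 10, 7, 13 and 22 of 35 members, against 3036, 1927, 4368 and 3686 of 11279 genes. By that measure the members were near the share of all genes at 0, 1 and 5 h. DESeq2's Wald test called 1, 1, 1 and 9 members. At 5 h leaving out a library moved the count from 0 to as many as 5, which came with BMDM-Nur77-KO replicate 4 left out. The count at 18 h ranged from 7 to 11, highest without replicate 3 of BMDM-WT, and without replicate 4 of BMDM-Nur77-KO it was 7.

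**Figure D4:**
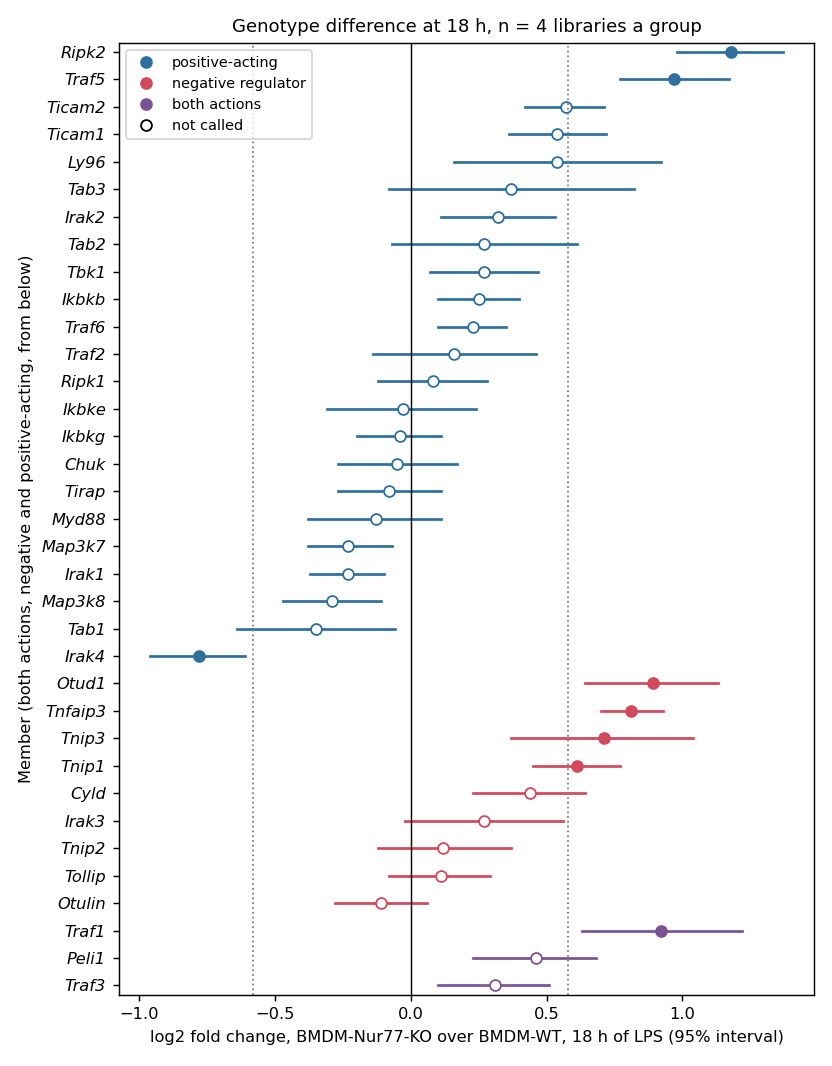
Log2 fold change of BMDM-Nur77-KO over BMDM-WT at 18 h of LPS (horizontal axis, with 95% interval) for 35 members, coloured by action. Filled points are called and dotted lines mark 0.58 either way. Ripk2 lies furthest right at 1.18 and Irak4 furthest left at -0.78.

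Of the 4 genes for A20 and its binding proteins, 3 were called higher in the knockout at 18 h. Tnfaip3 measured 186, 217, 214 and 207 CPM in BMDM-WT and 362, 369.9, 366 and 352 CPM in BMDM-Nur77-KO at that time. All knockout libraries lay above all wild-type ones (log2 fold change 0.81 ± 0.06, adjusted p = 2.7e-12). The order was different earlier. Tnfaip3 was slightly higher in the knockout before LPS (128, 129, 133 and 139.8 CPM against 103 to 115, log2 fold change 0.25 ± 0.06, adjusted p = 0.0028), and at 1 h it was below, at 2526, 2346, 2367 and 2351 CPM against 2532 to 2772, where the groups did not overlap but the test was not passed (-0.14 ± 0.06, adjusted p = 0.14).

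Tnip1 ended at 254, 268, 253 and 255 CPM in BMDM-WT and at 384, 414, 393 and 379.9 CPM in BMDM-Nur77-KO at 18 h. The groups were fully apart, and the difference was 0.61 ± 0.08 (adjusted p = 3.4e-07). At 5 h the groups had overlapped, at 356 to 395 CPM in BMDM-WT and 324 to 402 CPM in the knockout. Tnip3 measured 174, 178, 209 and 160 CPM in BMDM-WT and 267, 238, 264 and 406 CPM in BMDM-Nur77-KO (0.71 ± 0.17, adjusted p = 0.002). The highest of these is the library that stood apart. Without it the difference was 0.51 (adjusted p = 0.021), and in the GC-corrected fit it was 0.50, both under the limit. The A20 partner Tnip2 passed the test at 1 h (0.42 ± 0.12) and 5 h (0.45 ± 0.12), at 35 to 39 CPM against 26.2 to 30.0 and at 75.3 to 118 CPM against 59.5 to 70.6, without overlap. Neither held throughout: at 1 h it did not pass in the GC-corrected fit (adjusted p = 0.14) or without replicate 2, 3 or 4 of the knockout or replicate 1, 3 or 4 of BMDM-WT (highest adjusted p = 0.097), and at 5 h not without replicate 1 of the knockout (0.30, adjusted p = 0.052). At 18 h it was at 36.4 to 45.2 CPM against 29.8 to 43.3.

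Otud1 differed before any stimulus. At 0 h it measured 25.4, 34.7, 26.6 and 28.3 CPM in BMDM-WT and 51.4, 47.6, 51.8 and 42.5 CPM in BMDM-Nur77-KO. At 1 h the values were 65.5, 71.0, 66.8 and 82.8 against 101, 117, 109 and 116 CPM. At 18 h they were 22.8, 21.1, 25.9 and 24.9 against 39.6, 36.7, 50.5 and 48.1 CPM. The knockout lay above BMDM-WT without overlap at all 3 times (log2 fold change 0.74 ± 0.12, 0.63 ± 0.11 and 0.89 ± 0.12, adjusted p at most 2.9e-04). In the GC-corrected fit the value at 1 h was 0.58, just under the limit. At 5 h, at the peak of the response, the groups overlapped at 160 to 179 and 159.5 to 228 CPM (0.11 ± 0.11, adjusted p = 0.49).

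**Figure D5:**
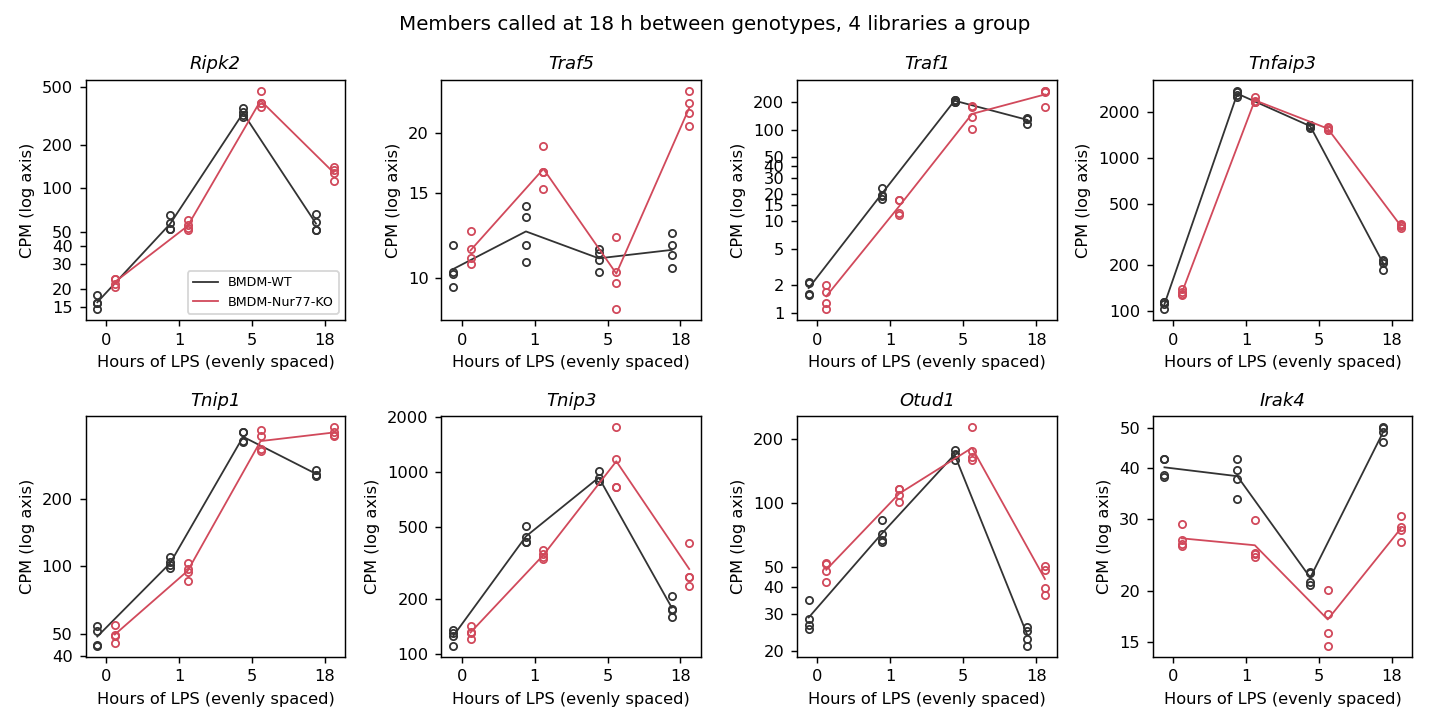
Level (CPM, logarithmic vertical axis) of the 8 members called between genotypes at 18 h, in every library (open circles) with group means joined by lines, at each time of LPS (horizontal axis, evenly spaced). At 18 h the groups are fully apart in all 8 panels, but the panels were picked by the difference at that time. The share of all genes fully apart is not given here. In the Irak4 panel the knockout lies below BMDM-WT at each of the 4 times.

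Ripk2 showed the largest genotype difference of the members. At 18 h it measured 51.4, 58.5, 65.8 and 51.8 CPM in BMDM-WT and 128, 112, 133 and 140.4 CPM in BMDM-Nur77-KO, about 2.26-fold higher (log2 fold change 1.18 ± 0.10, adjusted p = 7.5e-11). It was also higher at 0 h, at 20.8 to 23.7 CPM against 14.6 to 18.3 (0.46 ± 0.10), and at 5 h, at 363 to 471 CPM against 308 to 359 (0.28 ± 0.09, and 0.20 without replicate 1 of BMDM-Nur77-KO, where the test was no longer passed at adjusted p = 0.14). At 1 h the groups overlapped.

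Of the TRAF proteins, Traf1 and Traf5 stood out at 18 h. Traf1 measured 132, 131, 116 and 136 CPM in BMDM-WT and 266, 269, 263 and 179.6 CPM in BMDM-Nur77-KO (0.92 ± 0.15, adjusted p = 1.4e-05), and the lowest knockout library, the one that stood apart, was still above all of BMDM-WT. At 5 h the order was the opposite, with 214, 204, 215 and 203 CPM in BMDM-WT and 102, 138, 176 and 183 CPM in the knockout, again without overlap (-0.48 ± 0.15, adjusted p = 0.018). Without replicate 1 of the knockout that value was -0.34 (adjusted p = 0.081). All BMDM-WT libraries held less Traf1 at 18 h than at 5 h, and 3 of 4 knockout libraries held more.

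Traf5, which carries TNF receptor and IL-17 receptor signals, hardly responded to LPS in BMDM-WT, at 9.60 to 11.7 CPM at 0 h and 12.4, 11.2, 10.5 and 11.7 CPM at 18 h. In BMDM-Nur77-KO it measured 20.6, 23.0, 24.4 and 21.9 CPM at 18 h, fully above BMDM-WT (0.97 ± 0.10, adjusted p = 8.2e-09), and 15.3 to 18.8 CPM against 10.8 to 14.1 at 1 h (0.43 ± 0.10). An antisense gene shares 4.49% of the exon bases of Traf5, and whether the counting used the strand is not given in the sources used here. Traf6, the central ligase of the pathway, and Traf3 passed the test with smaller differences at 18 h (0.23 ± 0.06 and 0.31 ± 0.10). Traf6 did not pass in the GC-corrected fit (adjusted p = 0.076), nor Traf3 without replicate 2 or 3 of BMDM-Nur77-KO or replicate 1 or 2 of BMDM-WT (highest adjusted p = 0.13).

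Irak4 was the one member that differed in the same direction at all 4 times. At 0 h it measured 38.4, 37.9, 42.0 and 42.1 CPM in BMDM-WT and 26.0, 25.8, 26.7 and 29.1 CPM in BMDM-Nur77-KO. At 1 h the values were 42.0, 39.4, 33.6 and 37.6 against 29.9, 24.8, 24.6 and 24.2 CPM. At 5 h both were lower, at 22.2, 22.3, 21.1 and 20.7 against 20.1, 17.6, 14.7 and 15.8 CPM. At 18 h BMDM-WT stood at 50.2, 50.1, 46.3 and 49.0 CPM and BMDM-Nur77-KO at 30.5, 26.3, 28.2 and 28.6 CPM. No knockout library reached a wild-type one at any time. The log2 fold change was -0.57 ± 0.08, -0.56 ± 0.08, -0.34 ± 0.09 and -0.78 ± 0.08 (adjusted p = 1.4e-05, 3.2e-05, 0.0085 and 2.1e-08), of which the value at 18 h passed the limit of 0.58. Of all 11279 genes tested, 0.674% were lower and 0.807% higher at all 4 times. Exons of Irak4 overlap those of Twf1, on the opposite strand, over 7.87% of its exon bases. Without replicate 1 of BMDM-Nur77-KO the value at 5 h was -0.42, and in a fit of only the libraries compared it did not pass (adjusted p = 0.14). Twf1 itself had log2 fold changes of 0.12, -0.01, 0.16 and 0.01 at these times (adjusted p = 0.50, 0.98, 0.30 and 0.96). The other active IRAKs behaved differently: Irak1 was lower at 0 h (-0.24 ± 0.07) and 18 h (-0.23 ± 0.07), and Irak2 was higher at 18 h (0.32 ± 0.10). In the GC-corrected fit Irak1 passed at neither time (adjusted p = 0.58 and 0.18), and at 18 h it did not pass without replicate 4 of the knockout or replicate 1 of BMDM-WT (adjusted p = 0.072 and 0.087). Irak2 did not pass without replicate 1 or 2 of the knockout or replicate 3 of BMDM-WT (highest adjusted p = 0.077).

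The adaptors of the endosomal arm were higher in the knockout at 18 h, just under the limit. Ticam1 measured 66.5, 67.4, 57.4 and 65.1 CPM in BMDM-WT and 88.1, 93.4, 93.7 and 96.4 CPM in BMDM-Nur77-KO (0.54 ± 0.09, adjusted p = 2.3e-05, and 0.64 in the GC-corrected fit). Ticam2 measured 104, 110.4, 111 and 100 against 146, 157, 154 and 173 CPM (0.57 ± 0.07, adjusted p = 3.0e-07). Both were without overlap, and Ticam2 was already higher at 5 h (0.38 ± 0.07). Ikbkb, the catalytic subunit IKKb, reached 93.4, 88.6, 70.7 and 89.3 CPM in BMDM-WT and 103, 99.6, 95.6 and 108 CPM in the knockout (0.25 ± 0.07, adjusted p = 0.013), but did not pass without replicate 3 of BMDM-WT (0.17, adjusted p = 0.068) or replicate 4 of the knockout (0.22, adjusted p = 0.051).

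Other members differed by less at 18 h. Peli1 was higher (0.46 ± 0.11), at 269 to 369 CPM against 208 to 236 CPM, as was Cyld (0.44 ± 0.10). Map3k8 was lower (-0.29 ± 0.09), at 32.4 to 36 CPM against 39.4 to 43.8 CPM, although not without replicate 1 of BMDM-WT (adjusted p = 0.065). Ly96 (0.54 ± 0.19) and Tbk1 (0.27 ± 0.10) passed, but neither passed without replicate 1 or 4 of BMDM-Nur77-KO or replicate 1, 2 or 4 of BMDM-WT (highest adjusted p = 0.20 and 0.23). Map3k7 passed as lower (-0.23 ± 0.08), but not without replicate 1, 2 or 3 of BMDM-Nur77-KO or replicate 3 or 4 of BMDM-WT (highest adjusted p = 0.11). In a fit of only the 18 h libraries, Ly96, Tbk1, Map3k7, Irak1, Irak2, Traf3, Traf6 and Ikbkb did not pass (adjusted p = 0.064 to 0.17). The 14 other members tested did not pass at 18 h, Tab1 among them at 8.59 to 11.8 CPM against 12.3 to 15.5 CPM (-0.35 ± 0.14, adjusted p = 0.083).

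At 5 h the members that differed split evenly. Myd88 was lower in the knockout, at 158, 228, 285 and 291 CPM against 358, 379.9, 349 and 345 CPM (-0.57 ± 0.12, adjusted p = 0.0011). The lowest is the library that stood apart, and without it the difference was -0.42 (adjusted p = 0.0023). The overlap of Myd88 with Acaa1a, over 11.3% of its exon bases, applies here too. Traf2, Ikbke, Traf1 and Irak4 were lower as well, and Tab2, Ripk1, Tnip2, Ticam2 and Ripk2 higher. Without replicate 1 of the knockout, Traf2, Traf1, Ikbke, Tab2, Ripk2 and Tnip2 no longer passed (adjusted p = 0.11, 0.081, 0.10, 0.20, 0.14 and 0.052). Traf2 and Traf1 also did not pass without replicate 2 of the knockout, Traf2 without replicate 2 of BMDM-WT, and Ripk2 without replicate 1 or 2 of BMDM-WT. In a fit of only the 5 h libraries, Ticam2 alone of these members passed (adjusted p = 0.048), and Myd88 and Ripk1 were among those that did not (adjusted p = 0.11 and 0.16).

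A test of the interaction asked whether the change from 0 h differed between the genotypes (adjusted p under 0.05, no limit on size). The comparisons share their 0 h libraries. At 18 h the change was larger in BMDM-Nur77-KO for 8 members (5.36% of all genes had a larger and 4.03% a smaller change). They were Traf1 (1.20 ± 0.32, adjusted p = 0.012), Traf5 (0.84 ± 0.14), Ripk2 (0.71 ± 0.14), Ticam1 (0.69 ± 0.13), Tnip1 (0.58 ± 0.11), Tnfaip3 (0.56 ± 0.08), Ticam2 (0.39 ± 0.10) and Ikbkb (0.35 ± 0.10). The value of Traf1 rests on 22 to 30 tags a library at 0 h in BMDM-WT and 12 to 25 in the knockout. Its mean there was 0.796 and 0.648 RPKM, so it passed the filter on low values through its LPS groups. With a library left out, the highest adjusted p of Traf1 was 0.037. At 1 h the change of Tnfaip3 was smaller in the knockout, with a log2 rise of 4.18 ± 0.06 against 4.58 ± 0.06 in BMDM-WT (difference -0.40 ± 0.08, adjusted p = 0.040), where 0.0443% of all genes had a larger and 0.0266% a smaller change. At 5 h the changes of Tnfaip3 (-0.31 ± 0.08) and Otud1 (-0.64 ± 0.16) were smaller (1.73% of genes larger, 1.37% smaller). Both genes started higher in the knockout at 0 h. The interactions at 1 and 5 h were lost when any of several single libraries was left out, and the one at 1 h in most such fits. That of Otud1 at 5 h did not pass with GC correction (adjusted p = 0.18), with only the libraries compared, or without replicate 1 or 3 of the knockout at 0 h or replicate 1 of BMDM-WT at 0 h (adjusted p = 0.051 to 0.058). That of Ikbkb at 18 h did not pass without replicate 1 of the knockout at 0 h, replicate 4 of the knockout at 18 h, replicate 1 or 4 of BMDM-WT at 0 h or replicate 3 of BMDM-WT at 18 h (highest adjusted p = 0.066), without a filter, or with only the libraries compared.

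Among 56 other genes of the pathway (receptors, NF-kB subunits and inhibitors, MAP kinases and interferon regulatory factors), 50 were tested. At 18 h the knockout had 7 of them called higher and 2 lower, against 5.70% and 4.12% of all genes. At 5 h it had 3 and 2 (5.61% and 3.13%), and before LPS 0 and 2 (2.38% and 2.44%). Those with the largest fitted values at 18 h included Nfkb2, the precursor of p52 (0.99 ± 0.14, adjusted p = 4.3e-06), and Tank, a binding partner of TBK1 (0.98 ± 0.22, adjusted p = 0.0014). Map2k6, a p38 kinase kinase, had -1.64 ± 0.44 (adjusted p = 0.0063), but on 8 to 12 tags a library in BMDM-WT and 1 to 6 in the knockout, and it passed the filter on low values through its 0 and 1 h groups. The median of the 50 at 18 h was 0.14. In BMDM-WT at 5 h, 24 of the 50 were called higher than at 0 h and 5 lower (15.7% and 18.0% of all genes). By the interaction test at 18 h, the change was larger in the knockout for 11 and smaller for 3 (5.36% and 4.03%). Such calls were thus not particular to the members. Among cell type markers, the summed level of the 6 dendritic cell markers was not equal between the genotypes at 18 h. It was 6.73 to 8.27 CPM in BMDM-WT and 19.1 to 24.1 CPM in BMDM-Nur77-KO, and 3 of the 6 made up the difference, with mean levels of 3.52 and 12.1 CPM for Clec9a, 2.40 and 4.37 for Xcr1 and 1.42 and 4.29 for Ccr7. Zbtb46, Siglech and Flt3 were near 0 in both genotypes, with Siglech at 0 in BMDM-WT and Flt3 at 0 in BMDM-Nur77-KO. The 8 macrophage markers summed to 13879 to 14455 CPM and 10944 to 12387 CPM. These marker levels were not tested, nor was their part in the differences of the members at 18 h.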

How the data were processed

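The authors aligned paired-end reads of strand-specific libraries to mm10 with HISAT2 2.1.0, filtered them on mapping quality and used HOMER to count tags for each RefSeq transcript. The deposited table holds these expected counts without normalization for 42361 transcripts, and 28.6% of values are not whole. RefSeq symbols were given to 42198 transcripts and GENCODE symbols to 70, and 93 unnamed ones (0.233% to 1.37% of tags) were left out. The transcript with the highest mean was kept for each of 25067 genes, and counts were rounded. Of the members, 23 had more than 1 transcript, which share reads.

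In R 4.3.3, edgeR 4.0.16 scaled counts with TMM and fitted one quasi-likelihood model of 8 group means to 11279 genes whose group mean exceeded 1 RPKM in any group. RPKM used GENCODE transcript lengths. P-values were adjusted over all these genes with the Benjamini-Hochberg method. Errors in the text are standard errors of log2 fold changes, or SDs of levels. Values in every library are given for members called between genotypes or by interaction and for the extreme responders to LPS, other members by range. Alternatives were DESeq2 1.42.0, its size factors, other filters, other transcripts, a replicate block, fewer libraries and, added after seeing the data, GC correction. Members and lists were chosen with earlier results of these data known.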

Additional observations from a re-analysis of the deposited data

Results flagged for a closer look

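Of 288 groups of 4 libraries tested with Dixon's ratio, 27 held a library beyond its 95% critical value, where chance flags about 1 in 20, or 14.4. Replicate 4 of BMDM-Nur77-KO at 18 h accounted for 6, in CPM 177 for Irak3 (others 117 to 124), 179.6 for Traf1 (263 to 269), 369 for Peli1 (269 to 285), 441 for Tab2 (248 to 267), 406 for Tnip3 (238 to 267) and 82.3 for Tollip (others at 101). Replicate 1 of BMDM-Nur77-KO at 5 h accounted for 3, with 24.4 CPM of Tirap, 82.7 of Ly96 and 138 of Irak2. Replicate 1 of BMDM-Nur77-KO at 1 h also had 3, with 45.2 CPM of Ticam1, 29.9 of Irak4 and 2526 of Tnfaip3.

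In the other BMDM-Nur77-KO libraries, single values stood apart for Tirap (22.3 CPM, 18 h replicate 2), Irak2 (84.4 CPM, 1 h replicate 2), Map3k7 (72.4 CPM, 1 h replicate 4), Tab2 (209.7 CPM, 0 h replicate 1), Sigirr (0.766 CPM, 0 h replicate 3) and Tbk1 (91.3 CPM, 0 h replicate 4). In BMDM-WT at 18 h, replicate 3 had 120.4 CPM of Irak3 and 33.8 of Tab3, and replicate 2 had 268 CPM of Tnip1. At 0 h replicate 1 had 39.7 CPM of Peli1 and 62.4 of Ikbkg, and replicate 2 had 197 CPM of Tab2 and 38.8 of Otulin. The remaining values were 213 CPM of Tab2 at 1 h in replicate 3 and 102 CPM of Cyld at 5 h in replicate 4.

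The change from 0 h differed between the genotypes by the interaction test for Tnfaip3 at 1 h (-0.40 on the log2 scale), Tnfaip3 and Otud1 at 5 h (-0.31 and -0.64), and at 18 h for Traf1 (1.20), Traf5 (0.84), Ripk2 (0.71), Ticam1 (0.69), Tnip1 (0.58), Tnfaip3 (0.56), Ticam2 (0.39) and Ikbkb (0.35).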

How the results depend on the processing

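Of 204 member changes that passed the test, all 3352 refits kept the direction, and 110 of 1720 that left out a library no longer passed. Of the 204 under each other setting, 23 no longer passed with only the libraries compared, 16 with GC correction and 9 without a filter. Losses were 7 with DESeq2's size factors, 5 with DESeq2's Wald test and 2 with a replicate block. With edgeR's own filter 1 was lost, and with all transcripts summed 0. Without the limit on the fold change, 6, 4, 10 and 21 members passed between genotypes at 0, 1, 5 and 18 h, 16, 31 and 31 against 0 h in BMDM-WT at 1, 5 and 18 h, and 15 and 29 in BMDM-Nur77-KO at 1 and 18 h. The share of all genes passing without that limit is not given here. Between genotypes, the count at 1 h was 0 with GC correction. At 5 h it was 1 with DESeq2, with its size factors, with GC correction and with edgeR's own filter. For interactions, the count at 1 h was 0 with edgeR's filter and without a filter and 4 with only the libraries compared, at 5 h 1 without a filter and 0 with only the libraries compared, and at 18 h 13 with GC correction. Leaving out a library gave 1 to 2, 1 to 2, 0 to 5 and 7 to 11 members between genotypes at 0, 1, 5 and 18 h, 8, 18 and 12 to 14 in BMDM-WT, 6 to 7, 19 to 20 and 15 to 16 in BMDM-Nur77-KO, and 0 to 1, 0 to 4 and 7 to 9 interactions. Between genotypes, Irak4 joined the calls at 0 h without replicate 4 of BMDM-Nur77-KO or replicate 1 or 2 of BMDM-WT. Replicate numbers did not pair the libraries (mean correlation of deviations -0.02, against 0.01 for other numbers), and with a replicate block the interaction count at 1 h was 0 while the counts between genotypes stayed at 1, 1, 0 and 8.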

Other observations

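Irak4 lies 6.71 Mb from Nr4a1 on chromosome 15, the chromosome that carries the deleted gene. Of the 102 genes tested within 10 Mb of Nr4a1, 12 (11.8%) were called between the genotypes at 0 h, 8 of them lower in BMDM-Nur77-KO, against 543 of 11279 (4.81%) over all genes. Nr4a1 itself is counted in the 102, the 12 and the 8. By whole chromosome the share called ran from 2.9% (chromosome 12) to 8.75% (chromosome 1), with 5.5% on chromosome 15. The part of this position in the lower level of Irak4 was not tested. Tab1 (21.1 Mb away) and Otulin (73.7 Mb) lie on the same chromosome.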
